A study of Saccharomyces cerevisiae x Saccharomyces paradoxus and Saccharomyces cerevisiae and Saccharomyces paradoxus with 10 samples.

Results

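The genes described here encode assembly factors of the 60S ribosomal subunit, the proteins that fold, cut, modify and export the precursor of the large subunit without staying in the finished ribosome. They were taken from a list of 60 gene names, and 59 of these names were found among the 4637 genes of the series. NOP7 was not analysed here. All 59 passed the minimum coverage and were tested among 4544 genes, and all 59 were marked by the authors as having at least 100 reads on both orthologs in hybrid mRNA and hybrid ribosome-protected fragments.

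Making a large subunit begins in the nucleolus, where Npa1 and Noc complexes, DEAD-box helicases and rRNA methyltransferases act on the young transcript. The Nop7 complex and proteins bound to ITS2, a spacer between the rRNAs of the large subunit, then organise the particle, and Rpf2 and Rrs1 bring in the 5S RNA. Nuclear GTPases, the Rix1 complex and the AAA ATPase Mdn1 prepare it for export, after which cytoplasmic enzymes remove the last factors. In growing yeast these genes are known to be regulated together with other genes of ribosome production.

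Messenger RNA selected by its poly-A tail and footprints of ribosomes (RPF, the pieces of mRNA that a translating ribosome shields from nuclease, taken here from single-ribosome fractions) were sequenced from a hybrid yeast and its parents. The hybrid was a diploid of the S. cerevisiae strain BY4176, labelled MAT-alpha lys2 ura::KAN, and the S. paradoxus strain CBS432, labelled MATa ura::HYG. The parents were haploid S. cerevisiae BY4176 and diploid S. paradoxus CBS432, although the description of 1 mixed library calls them haploid. All grew in YPD, a rich medium, at 30 °C to an optical density of 0.5 to 0.7. The 10 samples gave 4 settings with 2 replicates each: the mRNA and the RPF of the hybrid, and the mRNA and the RPF of the parents. Each setting gave 1 value per gene for S. cerevisiae and 1 for S. paradoxus in each replicate. The parents were mixed before RPF isolation, while their mRNA was sequenced from 1 library of both mixed and from 1 library of each. Nothing in the labels says that replicates came from separate cultures beyond single colonies. The p-values thus measure only scatter within these samples, estimated in part over all settings and genes together, and that scatter may be technical.

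Values are base coverage per gene in ppm, parts in 1e+06, of the column total, and totals ran from 60.6 to 167 Mb. A column's total sets its scale, so a species difference below is one in the share of that species' coverage. The authors had scaled S. paradoxus coverage. The factors, inferred here from the spacing of the values, were 2.13 in parental RPF replicate 1, 0.417 in replicate 2 and 0.859 to 1.01 elsewhere. Coverage before scaling, given below, rests on these inferred factors. URA3, a uracil synthesis gene (the labels give a ura marker replacement for both strains crossed), lay at 164 to 248 ppm in the parental columns and at 3.99 to 12.5 ppm in the hybrid columns. By these values both parents sequenced expressed URA3, unlike the strains crossed as labelled. STE3, a receptor gene of alpha cells, gave 855 and 854 ppm in S. cerevisiae parental mRNA against 6.48 and 5.85 ppm in S. paradoxus parental mRNA. STE2, a receptor gene of a cells, gave 21.7 and 23.9 ppm in S. cerevisiae and 26.9 and 27.4 ppm in S. paradoxus parental mRNA. The S. paradoxus parent thus showed neither receptor gene near the level of STE3 in S. cerevisiae. Ploidy and mating type thus differed between parents together with species, and their part in any parental difference cannot be told apart from that of species. The same holds for any difference between the parents' cultures and, where each parent had its own mRNA library, between libraries. None of the 59 genes carried the authors' mark for ploidy or for mating type.

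The promoters of these genes share short sequences, shown first because most of the genes described below carry at least 1 of them. The PAC motif, GCGATGAG on either strand, is known in S. cerevisiae as a target of the repressors Dot6 and Tod6. The RRPE core, AAAATTTT, which is its own reverse complement, is known as a target of Stb3. Between 250 bases before and 50 bases after the start codon, 34 of 59 genes (57.6%) had a PAC match, against 212 of 4401 promoters of the table (4.82%). The RRPE core was found in 45 of 59 (76.3%), against 9.86% of all promoters. Both occurred in 25 genes (42.4%, against 2.41%), and in 23 of these at most 30 bases lay between them, with a median gap of 8 bases. The RRPE core was the one farther from the start codon in 22 of the 25. Windows of 50 bases that hold both motifs are given for genes described below, 5′ to 3′ on the strand of the gene, with the motifs in capitals.
NOG1: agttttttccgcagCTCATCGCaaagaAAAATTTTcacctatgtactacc
DBP3: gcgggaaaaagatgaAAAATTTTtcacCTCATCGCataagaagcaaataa
NOP2: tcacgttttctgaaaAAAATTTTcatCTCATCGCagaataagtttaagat
YTM1: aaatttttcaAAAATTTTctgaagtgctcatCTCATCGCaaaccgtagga
CIC1: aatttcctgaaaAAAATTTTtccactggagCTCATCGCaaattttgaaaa
RPF2: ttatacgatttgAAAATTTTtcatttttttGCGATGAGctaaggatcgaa
NSA2: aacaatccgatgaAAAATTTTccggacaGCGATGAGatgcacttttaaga
MDN1: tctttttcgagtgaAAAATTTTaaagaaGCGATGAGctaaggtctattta
NMD3: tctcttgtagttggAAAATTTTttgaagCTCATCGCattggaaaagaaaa
MRT4: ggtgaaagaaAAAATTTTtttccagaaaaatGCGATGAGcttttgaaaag

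These windows lie in the R64 assembly of S. cerevisiae and were read from its RefSeq sequence. The plus-strand ones are chrXVI:370821-370870 for NOG1, chrXIV:510383-510432 for NOP2, chrXV:832645-832694 for YTM1, chrVIII:210695-210744 for CIC1, chrVIII:443655-443704 for NMD3 and chrXI:426093-426142 for MRT4. Those of genes on the minus strand are chrVII:361980-362029 for DBP3, chrXI:592643-592692 for RPF2, chrV:414291-414340 for NSA2 and chrXII:363924-363973 for MDN1. In NOG1 the order was turned round, with PAC farther from the start codon. The genes lie on 15 chromosomes and none overlaps another coding gene of the annotation. PAC matches began at a median of -121.5 bases from the first coding base (-207 to -55), and RRPE matches at -139 (-247 to -97).

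**Figure D1:**
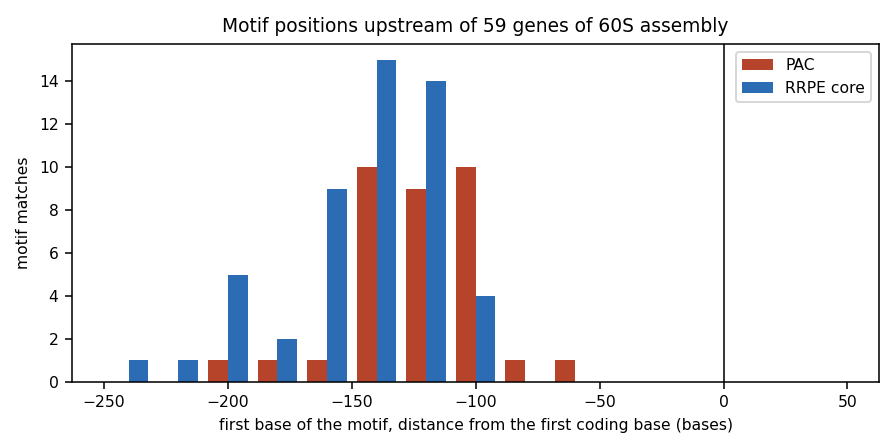
Positions of motif matches upstream of 59 genes, as the distance of the first base of the motif from the first coding base (x axis, bases), with the number of matches in bins of equal width (y axis) for PAC and for the RRPE core. PAC matches lie between -207 and -55 and RRPE matches between -247 and -97.

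Some of the genes had only 1 of the motifs, shown here as windows of 30 bases for genes that matter below, again with the motif in capitals.
URB1: cagcaataaagCTCATCGCaaagaatagtt
DBP7: ttgaaaaatttGCGATGAGcttaggaaaat
NOP13: aagaaaaaattGCGATGAGcatagatgata
SPB1: tttttgtctgaAAAATTTTttgcgatgccc
RRS1: ccctacgcataAAAATTTTtccaagtgatg
IPI3: cccactaaatgAAAATTTTaaatcgatgcc
ARX1: tgctttctgaaAAAATTTTaccgaagtaaa

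URB1, DBP7 and NOP13 had PAC and no RRPE core, while SPB1, RRS1, IPI3 and ARX1 had the RRPE core and no PAC. URB2, RSA3, NOP4, MAK11 and LSG1 had neither, which says only that these letters are not in the window searched. Among 28 other genes of 60S assembly, outside the list, 32.1% had PAC, 60.7% the RRPE core, and 7 had neither. Among 57 genes of 40S assembly 56.1% had PAC and 71.9% the RRPE core, and among 19 ribosomal protein genes these shares were 0% and 10.5%. All shares describe S. cerevisiae promoters, since the S. paradoxus sequence was not used here. By the authors' deposited values, promoters of the members differed between the species at a median of 20.6% of bases, against 20.5% for all genes with a value.

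The parents differed in mRNA of nearly every assembly factor, and every difference that passed the test had the same direction. In parental mRNA 52 of 59 genes were lower in S. cerevisiae than in S. paradoxus and none was higher (limma on log2 ratios, Benjamini-Hochberg adjusted p under 0.05), where 27.8% of all genes were lower and 30.8% higher. The median log2 ratio, S. cerevisiae over S. paradoxus throughout, was -0.71 for the 59 genes and 0.04 for all genes. Both S. cerevisiae replicates lay below both S. paradoxus replicates in 54 of 59 genes, as in 36.5% of all genes. Replicate 2 was further from 0 than replicate 1, with median ratios of -0.89 and -0.51. The median difference between replicates was 0.366 for these genes against 0.186 for all. The weight of parental mRNA in the fit was set from all genes. The SEs and p-values of these genes in parental and trans mRNA may therefore be too small. Tested against a 1.5-fold difference instead of none, 19 genes were lower, as were 7.24% of all genes.

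NOG1, a GTPase of the nuclear precursor, gave the largest parental difference. It had 250 and 227 ppm in S. cerevisiae parental mRNA, against 664 and 658 ppm in S. paradoxus parental mRNA, with no overlap. That is 2.77-fold lower in S. cerevisiae (log2 -1.47 ± 0.10 SE, n = 2 replicates, limma adjusted p = 4.28e-10). The other nuclear GTPases, NOG2 and NUG1, were lower by 1.02 and 0.51 on the log2 scale (log2 ratios -1.02 and -0.51), and both passed.

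All 9 DEAD-box helicases, enzymes that rearrange RNA helices, were lower in S. cerevisiae. DBP7 had 117 and 99.9 ppm in S. cerevisiae parental mRNA and 278 and 298 ppm in S. paradoxus (log2 -1.41 ± 0.13 SE, n = 2, limma adjusted p = 2.03e-08). For DBP3 the values were 319 and 264 ppm against 655 and 717 ppm (log2 -1.24 ± 0.11). The remaining 7 helicases had log2 ratios between -0.33 (DRS1) and -0.99 (HAS1). HAS1 encodes a helicase that also serves the small subunit.

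Each of the 3 rRNA methyltransferases passed the test as well. SPB1, which methylates the catalytic centre of the large subunit, had 193 and 147 ppm in S. cerevisiae and 411 and 435 ppm in S. paradoxus (log2 -1.32 ± 0.11 SE, n = 2, limma adjusted p = 5.52e-09). NOP2, which methylates 25S rRNA, was at -0.93. RRP8, a methyltransferase of 25S rRNA, had the smallest difference of the group at -0.47.

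Within the Npa1 and Noc complexes 5 of 6 genes were lower. URB1, also called Npa1 and a scaffold of the earliest large-subunit precursor, had 249 and 194 ppm in S. cerevisiae against 355 and 381 ppm in S. paradoxus (log2 -0.74 ± 0.13 SE, n = 2, limma adjusted p = 6.7e-05). RSA3, a small partner in the same complex, had 208 and 212 ppm in S. cerevisiae and 183 and 257 ppm in S. paradoxus. The RSA3 groups overlapped, and its log2 ratio of -0.05 did not pass.

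ERB1 and YTM1, the partners of Nop7, were close to each other. ERB1 had 300 and 263 ppm in S. cerevisiae parental mRNA against 463 and 494 ppm in S. paradoxus (log2 -0.77 ± 0.10 SE, n = 2, limma adjusted p = 1.5e-06). YTM1, whose removal by Mdn1 releases the complex, had 263 and 257 ppm against 430 and 490 ppm (-0.82 ± 0.10). Of the 5 genes for proteins that bind at or near ITS2, 4 were lower, led by CIC1 with 234 and 247 ppm in S. cerevisiae and 515 and 613 ppm in S. paradoxus (-1.22 ± 0.10). NOP12, an RNA-binding protein, had 322 and 280 ppm against 308 and 361 ppm, and its ratio of -0.15 did not pass.

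Loading of the 5S particle rests on RPF2 and RRS1, and both were lower. RPF2 had 174 and 152 ppm in S. cerevisiae and 289 and 395 ppm in S. paradoxus (log2 -1.05 ± 0.12 SE, n = 2, limma adjusted p = 5.2e-07). RRS1 had 165 and 173 ppm against 224 and 281 ppm (-0.57 ± 0.11). Neither gene's groups overlapped.

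The 16 other nucleolar factors were the most mixed group, with 12 lower and 4 that did not pass. NSA2, needed for cutting of ITS2, stood at 122 and 127 ppm in S. cerevisiae and at 268 and 320 ppm in S. paradoxus (log2 -1.23 ± 0.10 SE, n = 2, limma adjusted p = 1.09e-08). The 4 that did not pass were NOP13, RRP14, SSF1 and LOC1, with log2 ratios of 0.20, 0.19, -0.21 and -0.26. NOP13, an RNA-binding protein of the nucleolus, had 383 and 313 ppm in S. cerevisiae and 278 and 325 ppm in S. paradoxus, so its groups overlapped. RRP14 had 318 and 239 ppm in S. cerevisiae and 213 and 276 ppm in S. paradoxus.

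In the Rix1 complex and its partners all 5 genes were lower, from RSA4 at -1.15 to MDN1 at -0.29. MDN1, which encodes one of the largest yeast proteins, had 421 and 319 ppm in S. cerevisiae against 444 and 454 ppm in S. paradoxus. Its adjusted p was the highest of the 52 genes (limma adjusted p = 0.048), and without parental mRNA replicate 2 its log2 ratio was -0.08. Leaving out either hybrid mRNA or either hybrid RPF replicate also moved its adjusted p above 0.05, to between 0.06 and 0.073.

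Among 8 genes of export and cytoplasmic maturation 7 were lower. ARX1, an export factor, had 332 and 281 ppm in S. cerevisiae and 585 and 593 ppm in S. paradoxus (log2 -0.94 ± 0.11 SE, n = 2). MRT4, which holds the place of the stalk protein P0 until the cytoplasm, had 229 and 303 ppm against 489 and 542 ppm (-0.97 ± 0.11). TIF6, which keeps the subunits apart until it is removed, had 213 and 176 ppm against 294 and 314 ppm (-0.65 ± 0.11), and RLP24, a stand-in for the ribosomal protein L24, had 171 and 175 ppm against 268 and 318 ppm (-0.76 ± 0.11). All 4 passed and their groups did not overlap. NMD3, the adaptor to the export receptor, had 413 and 360 ppm in S. cerevisiae and 417 and 447 ppm in S. paradoxus, and its ratio of -0.16 did not pass (limma adjusted p = 0.16). It passed, at -0.31, when parental mRNA replicate 1 was left out.

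**Figure D2:**
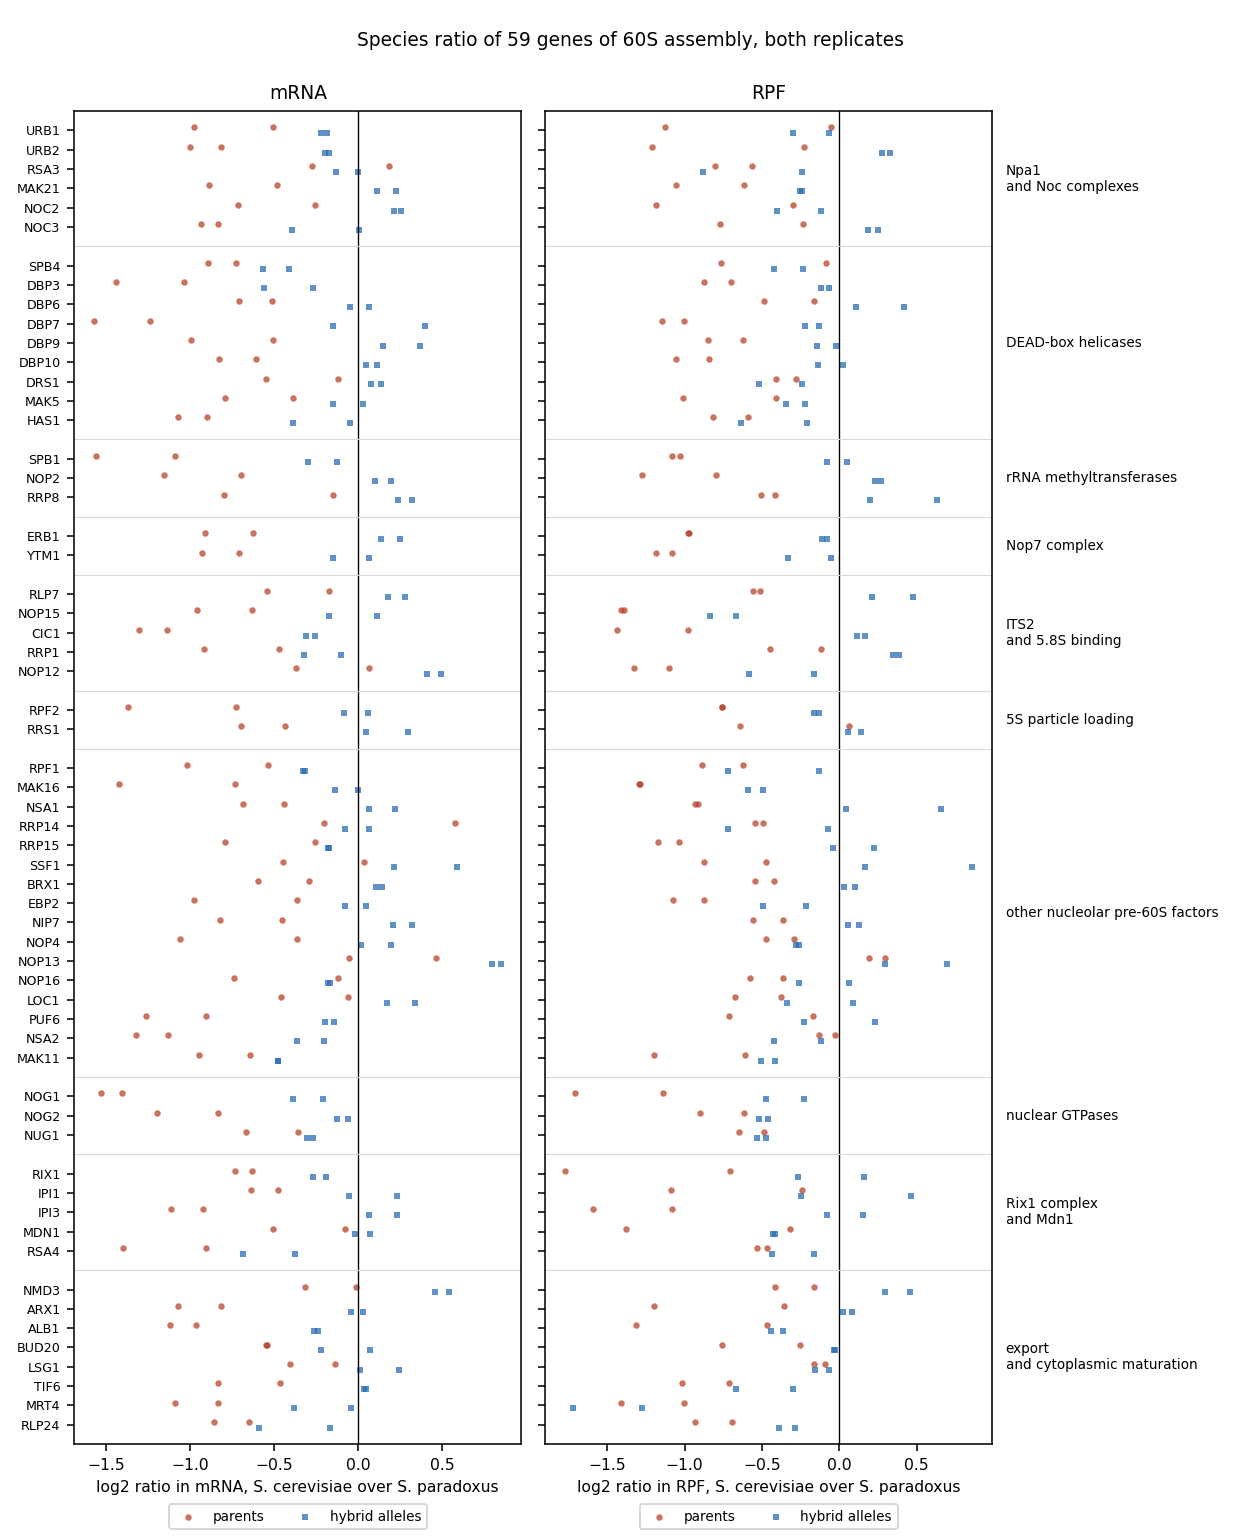
Log2 of S. cerevisiae coverage divided by S. paradoxus coverage (x axis) for each of 59 genes, ordered by role (y axis), in mRNA and in RPF, with 1 point per replicate for the parents and for the alleles of the hybrid. Parental points lie left of 0 for most genes in both assays, with median ratios of -0.51 and -0.89 in the mRNA replicates, while the hybrid mRNA medians are near 0.

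In the hybrid, where both alleles share 1 cell, the allele ratios of these genes were spread around 0. A difference between alleles there is called cis. For cis mRNA 10 of 59 genes were lower and 5 higher for the S. cerevisiae allele, together 25.4% of them, where 38% of all genes were called (20.2% lower and 17.8% higher). The 5 higher include SSF1, which changed sign per unmasked base, and on that scale 10 genes were lower and 3 higher. In 41 genes mRNA was lower in the S. cerevisiae parent and not called between the alleles, as in 15.1% of all genes. The median log2 ratio was -0.02 for the 59 genes and -0.02 for all genes, and the values ran from -0.53 to 0.82. Both S. cerevisiae allele replicates lay below both S. paradoxus replicates in 19 genes and above them in another 19, as did 32.3% and 29.8% of all genes. These counts rest on few libraries: 8 genes were called without hybrid mRNA replicate 1, 6 without replicate 2, and 3 with 1 spread shared by all settings.

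NOP13 had the highest cis ratio in mRNA. Its S. cerevisiae allele gave 584 and 522 ppm and its S. paradoxus allele 323 and 300 ppm in hybrid mRNA (log2 0.82 ± 0.10 SE, n = 2, limma adjusted p = 4.34e-06). NMD3 had the next highest ratio, with 575 and 571 ppm for the S. cerevisiae allele and 395 and 415 ppm for the S. paradoxus allele (0.50 ± 0.09, limma adjusted p = 0.000262). In both genes the alleles did not overlap, and both calls held without any 1 library. NOP12, at 0.45, SSF1, at 0.40, and NIP7, at 0.27, also passed, but without hybrid mRNA replicate 1 each of them missed the threshold, with log2 ratios of 0.41, 0.22 and 0.21. NIP7 missed it too without hybrid mRNA replicate 2 (0.32) or either hybrid RPF replicate (adjusted p = 0.064).

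SSF1 has a near-identical copy, SSF2, so how reads were shared between them is uncertain. It had 551 unmasked bases in S. cerevisiae and 340 in S. paradoxus, and per unmasked base its hybrid mRNA ratio was -0.29, on the other side of 0. The direction of its species difference is therefore not given as a result. For most other genes the unmasked lengths were equal or nearly so, with MAK11 at 1132 and 970 bases and RSA3 at 590 and 650 bases as the next most unequal.

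On the other side the lowest cis ratios in mRNA were those of RSA4, a partner and substrate of Mdn1, and of the helicase SPB4. RSA4 gave 241 and 207 ppm from the S. cerevisiae allele and 313 and 334 ppm from the S. paradoxus allele (log2 -0.53 ± 0.11 SE, n = 2, limma adjusted p = 0.000805). SPB4 gave 224 and 194 ppm against 299 and 287 ppm (-0.49 ± 0.10). MAK11 was at -0.48, DBP3 at -0.42, RLP24 at -0.38 and RPF1 at -0.32. Without hybrid mRNA replicate 2, RSA4 (-0.38), SPB4 (-0.41), DBP3 (-0.27), RLP24 (-0.16), RPF1 (-0.33) and NOG1 (-0.21) each missed the threshold, and RPF1 also did so without replicate 1 (-0.32).

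Parental and hybrid ratios were then set against each other, gene by gene, as parental minus hybrid log2 ratio, called trans. In mRNA 50 of 59 genes had a trans value below 0 that passed the test and none passed above 0, where 36% of all genes passed (16.8% below 0 and 19.2% above). The median was -0.69 for the 59 genes and 0.05 for all genes. A trans value uses the same parental and hybrid columns as the parental and cis values, so these comparisons are not separate evidence. With 1 spread shared by all settings 26 genes passed. Ploidy, mating type and URA3 also differed between the diploid hybrid and the haploid S. cerevisiae parent. URA3 differed between the hybrid and the S. paradoxus parent as well. The part of ploidy, mating type and URA3 in trans or in hybrid minus parent differences cannot be told apart from that of the cross. Any difference between the cultures cannot be told apart from it either.

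DBP7 had the lowest trans value in mRNA. Its hybrid alleles gave 243 and 248 ppm (S. cerevisiae) and 270 and 188 ppm (S. paradoxus), against the 2.65-fold parental difference given above. The hybrid replicates disagreed in sign, with log2 ratios of -0.15 and 0.40, and the fitted cis ratio of 0.12 did not pass. The trans value was -1.53 ± 0.17 (SE, n = 2, limma adjusted p = 1.32e-06). NOG1 came next, at -1.17 ± 0.14, with hybrid mRNA of 609 and 549 ppm from the S. cerevisiae allele and 703 and 718 ppm from the S. paradoxus allele.

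IPI3, of the Rix1 complex, had the same trans value of -1.17 ± 0.14. It gave 258 and 232 ppm in the S. cerevisiae parent against 490 and 503 ppm in the S. paradoxus parent, but 385 and 408 ppm against 368 and 348 ppm in the hybrid. The parental order was thus turned round between the hybrid's alleles, although its cis ratio of 0.15 did not pass. SPB1 (-1.11), NOP2 (-1.07) and RPF2 (-1.04) completed the lowest 6.

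Other named genes spread below these. ARX1 had a trans mRNA value of -0.94, ERB1 of -0.96, YTM1 of -0.78, MRT4 of -0.75, RRS1 of -0.74, TIF6 of -0.69, NMD3 of -0.66 and URB1 of -0.54, and all passed. URB1 missed the threshold without parental mRNA replicate 2 (-0.31), and without hybrid mRNA replicate 1 (-0.52) or 2 (-0.56). RLP24 (-0.38, adjusted p = 0.065) and MDN1 (-0.32, adjusted p = 0.15) did not pass, but RLP24 did without hybrid mRNA replicate 2 (-0.59) and MDN1 without parental mRNA replicate 1 (-0.53). NMD3 and NOP13, the genes with the highest cis ratios in mRNA, had parents that did not differ beyond the test. A trans value is the parental minus the cis ratio, so a high cis ratio by itself lowers it. Whether the cis and trans differences of these genes offset each other was not tested.

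The authors' deposited table gives its own calls, made with their own test. In the authors' deposited table all 56 of these genes with a p-value for mRNA trans had S. paradoxus higher, against 42.7% of 3065 genes. For mRNA cis the authors' deposited table had S. cerevisiae higher in 15 and S. paradoxus higher in 20 of 45 genes, against 37.9% and 40.1% of 3503 genes. For translation trans the authors' deposited table had S. cerevisiae higher in 20 and S. paradoxus higher in 4 of 40 genes. Of 2693 genes these shares were 24% and 23.8%. For translation cis the authors' deposited table had S. cerevisiae higher in 7 and S. paradoxus higher in 18 of 41 genes, against 26.4% and 27.6% of 2365 genes. Those tables share their samples with the values above and are no separate support. The authors' translation calls are not defined here and need not measure the same as RPF ratios. They are therefore not set against the RPF values below.

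**Figure D3:**
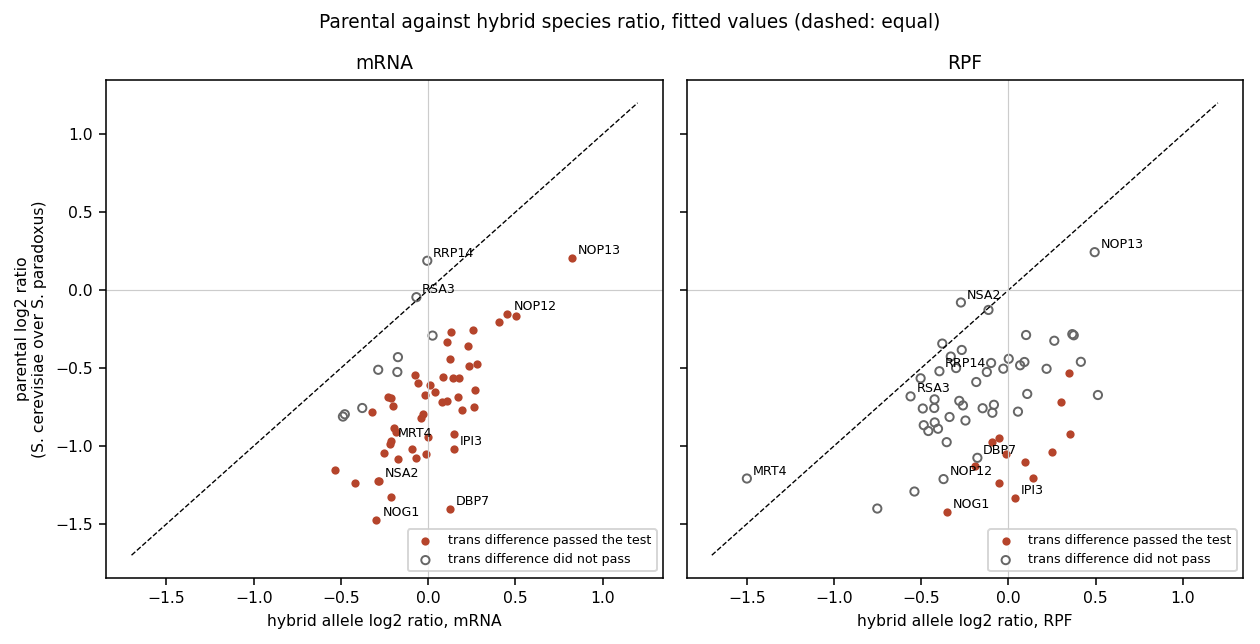
Fitted log2 ratio (S. cerevisiae over S. paradoxus) in the parents (y axis) against that of the hybrid's alleles (x axis) for 59 genes, in mRNA and in RPF, with filled points where the trans difference passed the test. In mRNA 50 genes and in RPF 13 genes are filled, all below the dashed line of equal ratios.

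Levels of each species on its own show which columns differ. For the S. cerevisiae allele, 50 of 59 genes were higher in hybrid mRNA than in the S. cerevisiae parent and none was lower, where 50.3% of all genes were called (20.8% higher and 29.5% lower). The median hybrid minus parent log2 difference was 0.68 for these genes and -0.13 for all genes. With the other scaling tried, the median of ratios, the all-gene median moved by 0.11 to -0.01, and the median of the 59 genes relative to it stayed at 0.80. Both hybrid replicates lay above both parental replicates in 55 genes, as in 30.5% of all genes.

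SPB1 gave the largest such difference, with 494 and 446 ppm from its S. cerevisiae allele in the hybrid, against 193 and 147 ppm in the S. cerevisiae parent (log2 1.48 ± 0.13 SE, n = 2, limma adjusted p = 3.5e-08). URB1 followed with 523 and 584 ppm in the hybrid and 249 and 194 ppm in the parent (1.33 ± 0.15). NOG1 had 609 and 549 ppm against 250 and 227 ppm (1.28 ± 0.12), and MDN1 had 787 and 1008 ppm against 421 and 319 ppm (1.28 ± 0.16). In all 4 genes these hybrid values lay above both values of the S. cerevisiae parent. MAK21, at 1.22, and MAK5, at 1.21, were next, and BUD20, at -0.15, was the single gene below 0. Coding lengths were 2526 bases for SPB1, 5295 for URB1, 1944 for NOG1 and 14733 for MDN1. MAK21 had 3078, MAK5 2322 and BUD20 501 bases. Any part of gene length in hybrid minus parent differences was not tested.

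For the S. paradoxus allele the same comparison gave a small and mixed picture. In mRNA 10 genes were higher and 4 lower in the hybrid than in the S. paradoxus parent, where 13.9% and 16.2% of all genes were, and the median was -0.02, against -0.05 for all genes. Both hybrid replicates lay above both parental replicates in 19 genes, as in 29.8% of all genes. The number called, 14 in all, was 6 without hybrid mRNA replicate 2, 8 without parental mRNA replicate 2 and 7 with 1 shared spread. MDN1 led the higher ones with 750 and 1021 ppm in the hybrid against 444 and 454 ppm in the S. paradoxus parent (log2 0.96 ± 0.14 SE, n = 2, limma adjusted p = 6.19e-05). RRP14 (0.87), URB1 (0.79) and MAK5 (0.67) followed, and all 4 of these were higher for the S. cerevisiae allele as well.

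The lower ones were BUD20 (-0.62), an export factor, IPI1 (-0.54), IPI3 (-0.47) and MRT4 (-0.32). BUD20, IPI1 and MRT4 each missed the threshold without hybrid mRNA replicate 2 (-0.47, -0.51 and -0.24) and without parental mRNA replicate 2 (-0.45, -0.42 and -0.25). MRT4 missed it also without any 1 of the RPF libraries, at an unchanged -0.32.

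The summed level of the 59 genes follows the same order. They took 2.47% and 2.42% of S. cerevisiae coverage in hybrid mRNA, against 1.53% and 1.34% in the S. cerevisiae parent. Of S. paradoxus coverage they took 2.49% and 2.43% in hybrid mRNA, against 2.21% and 2.48% in the S. paradoxus parent. The S. cerevisiae parent was thus the low column, and both alleles of the hybrid lay near the higher S. paradoxus parent. The ppm scale is relative, and less coverage of these genes cannot be told apart from more coverage of others in the same column.

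**Figure D4:**
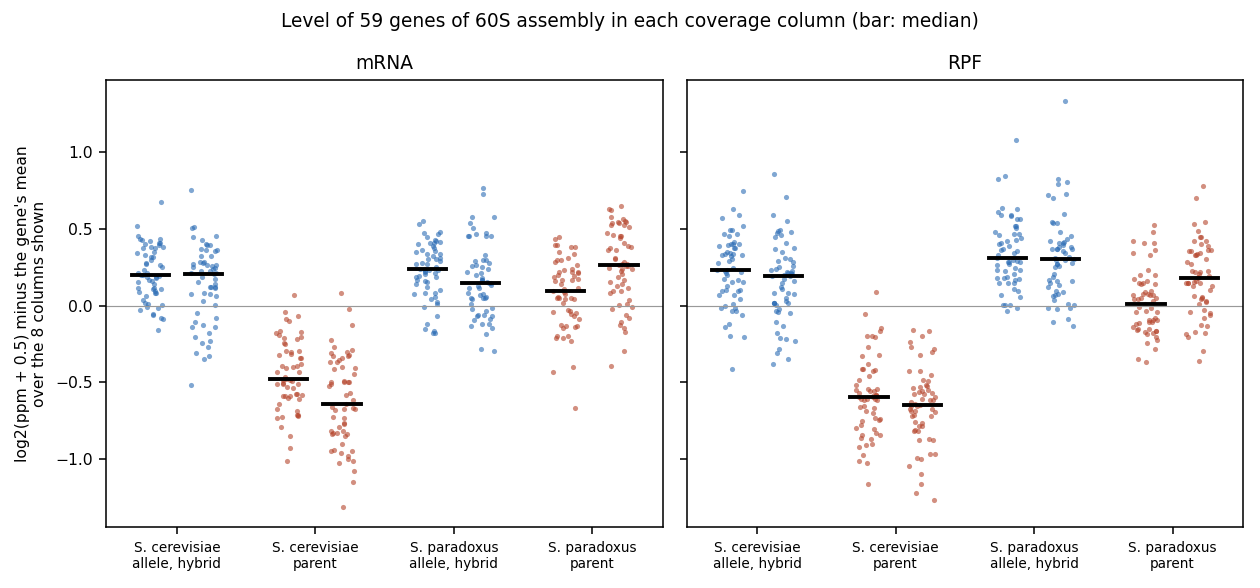
Level of each of 59 genes in every coverage column (y axis, log2 of ppm plus 0.5 minus the gene's mean over the 8 columns of the assay), by species and by hybrid or parent (x axis, 1 cloud per replicate, bar at the median). The S. cerevisiae parent's clouds lie lowest in both assays, and these genes took 1.53% and 1.34% of its mRNA coverage.

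RPF gave the same direction of difference between the parents. In parental RPF 41 of 59 genes were lower in S. cerevisiae and none was higher, where 35.9% of all genes were called (20.4% lower and 15.6% higher), with a median log2 ratio of -0.74 for these genes and -0.07 for all. Both S. cerevisiae replicates lay below both S. paradoxus replicates in 57 genes, as in 40.2% of all genes (the reverse held in 32.5%). In 38 genes both parental mRNA and parental RPF were lower, as in 15.1% of all genes. Without parental RPF replicate 2, whose S. paradoxus coverage was 256 Mb before scaling against 49.8 Mb in replicate 1, 17 genes were called, and tested against a 1.5-fold difference 9 were lower, as were 5.24% of all genes.

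NOG1 again led, with 336 and 257 ppm in S. cerevisiae parental RPF against 740 and 838 ppm in S. paradoxus parental RPF (log2 -1.42 ± 0.18 SE, n = 2, limma adjusted p = 5.14e-06). NOP15, which binds ITS2, had 157 and 151 ppm against 411 and 402 ppm (-1.40 ± 0.19). IPI3 had 155 and 122 ppm against 328 and 367 ppm (-1.34 ± 0.18), and MAK16 had 139 and 156 ppm against 341 and 383 ppm (-1.29 ± 0.22). None of these 4 genes overlapped between the parents, and all 4 calls held without any 1 library. RIX1, at -1.24, missed the threshold without parental RPF replicate 2 (-0.71).

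Of the other genes followed throughout, SPB1 had 229 and 254 ppm in S. cerevisiae against 467 and 538 ppm in S. paradoxus parental RPF (log2 -1.05 ± 0.19 SE, n = 2, limma adjusted p = 0.00028). YTM1 was at -1.13 and ERB1 at -0.97, and both passed. MRT4 had 257 and 195 ppm against 516 and 519 ppm (-1.21 ± 0.19). TIF6 (-0.87), MDN1 (-0.85), RLP24 (-0.81), ARX1 (-0.78) and URB1 (-0.59) passed only with parental RPF replicate 2 included, and without it stood at -0.71, -0.32, -0.69, -0.36 and -0.05. RPF2, at -0.76, needed both parental RPF replicates. URB1 was close to the threshold throughout and missed it also without either hybrid mRNA or hybrid RPF replicate. RRS1 (-0.29) and NMD3 (-0.29) did not pass.

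Between the hybrid's alleles 2 genes passed in RPF, MRT4 and NOP15, both lower for S. cerevisiae, where 12.1% of all genes were called (6.43% lower and 5.72% higher). Both S. cerevisiae replicates lay below both S. paradoxus replicates in 29 genes (28% of all genes) and above them in 12 (24.6%). At an unadjusted p under 0.05, 9 of 59 genes and 26.3% of all genes passed, and with 1 shared spread 11 of the 59 were called. The median cis RPF ratio was -0.12 for these genes and -0.02 for all genes. MRT4 had 409 and 359 ppm from the S. cerevisiae allele in hybrid RPF, against 992 and 1185 ppm from the S. paradoxus allele, a 2.83-fold difference (log2 -1.50 ± 0.22 SE, n = 2, limma adjusted p = 0.00015). NOP15 had 296 and 242 ppm against 531 and 384 ppm (-0.75 ± 0.21, limma adjusted p = 0.0241), and missed the threshold without hybrid RPF replicate 1 (-0.67) or 2 (-0.84).

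For trans RPF 13 genes passed below 0 and none above, where 10.9% of all genes passed (6.29% below 0 and 4.64% above), and the median was -0.59 for these genes against -0.04 for all. IPI3 (log2 -1.37 ± 0.27 SE, n = 2, limma adjusted p = 0.00264) and CIC1 (-1.34 ± 0.26) were lowest and kept their calls without any 1 library. NOP2 (-1.29), NSA1 (-1.27), RRP15 (-1.20) and RIX1 (-1.19) were next. Without hybrid RPF replicate 2 these missed the threshold, at -1.27, -0.96, -1.33 and -0.97. NOP2 (-1.04) and RIX1 (-0.65) did so too without parental RPF replicate 2, and RRP15 without any 1 RPF library (-1.33 to -1.07). The number called was 6 without hybrid RPF replicate 1, 2 without hybrid RPF replicate 2 and 3 without parental RPF replicate 2, and it was 27 with 1 shared spread. Export and cytoplasmic factors gave no call among 8 genes in trans RPF, too few to set them apart where 10.9% of all genes passed. Their median was -0.48, with 7 of 8 below 0. MRT4 stood at 0.29, with a log2 ratio of -1.21 in parental and -1.50 in hybrid RPF.

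By level, the S. cerevisiae allele gave more RPF in the hybrid than in the S. cerevisiae parent for 48 of 59 genes and less for none, where 18.2% of all genes were called (9.15% higher and 9.09% lower). The median was 0.82, against 0.01 for all genes, and both hybrid replicates lay above both parental replicates in 58 genes, as in 30.1% of all genes. Without hybrid RPF replicate 1, or without replicate 2, 20 genes were called. CIC1 rose most, with 602 and 541 ppm in the hybrid against 193 and 174 ppm in the S. cerevisiae parent (log2 1.64 ± 0.19 SE, n = 2, limma adjusted p = 6.85e-06). DBP7 had 306 and 315 ppm against 123 and 121 ppm (1.34 ± 0.21), and ARX1 had 693 and 672 ppm against 347 and 245 ppm (1.23 ± 0.22). MDN1, one of the 4 largest in mRNA, had 453 and 473 ppm in hybrid RPF and 642 and 398 ppm in parental RPF, and its value of -0.13 did not pass.

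The S. paradoxus allele was higher in hybrid RPF than in its parent for 5 genes and lower for none, where 12.5% of all genes were called (4.64% higher and 7.86% lower), with a median of 0.21 against -0.02 for all genes. Both hybrid replicates lay above both parental replicates in 32 genes, as in 27% of all genes. MRT4 led them with 992 and 1185 ppm in the hybrid against 516 and 519 ppm in the S. paradoxus parent (log2 1.07 ± 0.18 SE, n = 2, limma adjusted p = 0.000722). NOP4 (0.88), LOC1 (0.74), RRP14 (0.74) and MAK5 (0.64) missed the threshold without hybrid RPF replicate 2, at 0.75, 0.44, 0.54 and 0.66. Without parental RPF replicate 1, LOC1 (0.74), RRP14 (0.72) and MAK5 (0.53) missed it as well, as did LOC1 (0.74) and RRP14 (0.75) without parental RPF replicate 2 and MAK5 (0.61) without hybrid RPF replicate 1. The number called was 1 without hybrid RPF replicate 2, 2 without parental RPF replicate 1 and 11 with 1 shared spread.

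Translational efficiency (TE) is taken here as the RPF log2 ratio minus the mRNA log2 ratio, so it asks whether the species difference in ribosome coverage goes beyond that in mRNA. In the hybrid 1 of 59 genes passed, where 1.41% of all genes did (0.792% lower and 0.616% higher). In the parents 2 passed, where 6.34% of all genes did (3.9% lower and 2.44% higher). At an unadjusted p under 0.05 the counts were 6 in the hybrid and 11 in the parents, and 15.5% and 20.7% of all genes passed. The median was -0.11 in the hybrid, against 0.00 for all genes. In the parents it was -0.04 against -0.09 for all, or 0.09 against 0.03 with median-of-ratios scaling, which moved the all-gene median by 0.13, so no direction is given for it.

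MRT4 was the gene called in the hybrid, with a TE difference of -1.29 ± 0.24 (SE, n = 2, limma adjusted p = 0.0095). Its alleles gave 336 and 377 ppm (S. cerevisiae) and 437 and 388 ppm (S. paradoxus) in hybrid mRNA, so the alleles were close in mRNA and far apart in RPF. Its parental TE difference of -0.24 did not pass. The call was lost without hybrid mRNA replicate 2 (-1.12) and without hybrid RPF replicate 2 (-1.07), and the sign was kept in both.

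In the parents NSA2 was higher for S. cerevisiae and NOP12 lower. NSA2 had 190 and 188 ppm in S. cerevisiae parental RPF against 208 and 192 ppm in S. paradoxus, while its mRNA differed 2.34-fold, which gives a TE difference of 1.15 ± 0.21 (SE, n = 2, limma adjusted p = 0.00257). NOP12 showed the reverse, with 158 and 184 ppm in S. cerevisiae parental RPF against 396 and 396 ppm in S. paradoxus and little difference in mRNA, and its TE difference was -1.06 ± 0.22 (limma adjusted p = 0.00709). Without parental RPF replicate 2 both missed the threshold, at 1.10 and -1.17, and NOP12 also did without parental RPF replicate 1 (-0.95). In the hybrid the TE differences of NSA2 (0.01) and NOP12 (-0.83) did not pass.

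**Figure D5:**
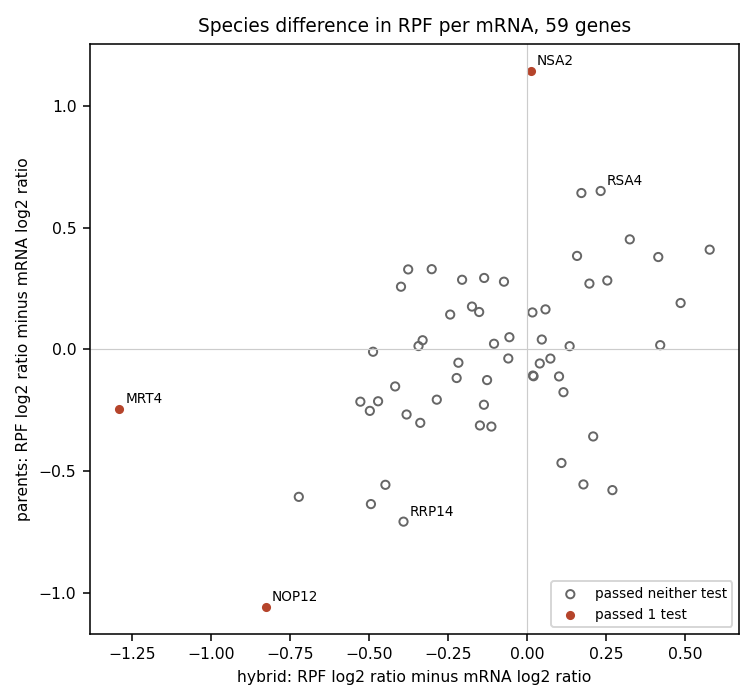
Difference in RPF per mRNA between the species, as the RPF log2 ratio minus the mRNA log2 ratio, in the parents (y axis) and between the hybrid's alleles (x axis) for 59 genes. MRT4 at -1.29 in the hybrid, and NSA2 at 1.15 and NOP12 at -1.06 in the parents, are the filled points that passed a test.

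Within each species the level of RPF was high for the mRNA of these genes. The median RPF minus mRNA level on the log2 scale was -0.15 for the S. cerevisiae alleles and -0.05 for the S. paradoxus alleles of the hybrid, and -0.24 in the S. cerevisiae and -0.23 in the S. paradoxus parent. The medians of all genes were -0.67, -0.68, -0.80 and -0.70 in the same columns. RRS1 was highest in the hybrid's S. cerevisiae alleles, at 1.22, and in the S. cerevisiae parent. MDN1 was lowest in the hybrid's S. cerevisiae alleles, at -0.94, yet highest of all 59 in the S. paradoxus parent, at 1.02.

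Per kilobase of unmasked sequence, the 59 genes had a median parental mRNA level of 335 ppm, against 128 ppm for all genes, and 53 of them lay above the median of all. MRT4 was highest at 967 ppm per kilobase, followed by TIF6 at 856 and NIP7 at 768, and MDN1, by far the longest gene, was lowest at 33.9. By the authors' deposited annotation 3 of 59 genes (5.08%) had a TATA promoter, against 14.3% of genes with a mark. Their coding sequences differed between the species at a median of 8.997% of bases, against 10.1% for all genes, and their median ratio of amino-acid to silent change was 0.0605, against 0.0702.

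Parental mRNA ratios can also be read by the motifs a promoter held. The median ratio was -0.78 for 25 genes with both motifs, -0.59 for 9 with PAC alone, -0.72 for 20 with the RRPE core alone and -0.71 for 5 with neither. The PAC-only group ran from -1.41 (DBP7) to 0.20 (NOP13), and the motifs were read in S. cerevisiae promoters only. No test was made between these small groups.

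Genes that work beside the 60S factors were set next to them. Of 57 genes of 40S assembly 55 were lower in S. cerevisiae parental mRNA (27.8% of all genes), with a median of -0.74. For the S. cerevisiae allele 51 were higher in hybrid mRNA than in its parent (20.8% of all genes), with a median of 0.68. All 5 subunits of RNA polymerase I that were tested were lower, with a median of -0.72, led by RPA190 at -0.93 and RPA49 at -0.86. A further 28 genes of 60S assembly outside the list gave 20 lower and 1 higher, with a median of -0.49. SYO1, an import chaperone for 5S proteins, was the lowest at -1.65. The higher one was SSF2, at 0.55, but how reads were shared with its copy SSF1 is uncertain, so its direction is too.

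The ribosomal protein genes held by the series, only those counted here, did not follow them. Of 13 large-subunit ribosomal protein genes 3 were lower and 4 higher in parental mRNA, with a median of 0.06, and of 6 small-subunit ones 3 were higher and none lower, with a median of 0.38. Among 11 regulators of ribosome genes 5 were lower and 3 higher in parental mRNA, where 27.8% of all genes were lower and 30.8% higher. DOT6 was the highest of these, at 1.96 ± 0.12 (SE, n = 2, limma adjusted p = 1.45e-10), and its paralog TOD6 the lowest, at -1.03 ± 0.11 (limma adjusted p = 2.21e-07). Their trans values in mRNA were 1.23 and -1.33 and passed as well, and any part of them in the differences of the 59 genes was not tested.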

How the data were processed

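The deposited signal was total coverage, the summed read depth over the unmasked bases of each gene, given by the authors for the gene or allele of each species. Per the file headers, the authors multiplied S. paradoxus coverage by 1 factor per replicate to equalise species totals. CASAVA 1.8.2 and Bowtie 0.12 are named in the submitters' processing notes, and these sources do not state the genome builds. Coverage is not a read count, so the number of reads behind a value is unknown and no counting interval is given. The authors' deposited p-value and call per gene come from their own test. Deposited fraction values of divergence were printed as percentages, and the authors' deposited ratio of amino-acid to silent change and marks for TATA, ploidy and read number were used as given. The remaining per-sample columns, 24 in number, were left aside. The table held 3 blank lines, and 235 genes without a systematic name could not be matched to R64.

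Coverage in 16 columns was divided by the column total and given in ppm. Ratios and levels were taken as log2(ppm + 0.5), a scale that understates differences of weak genes. Genes with a mean of at least 3 ppm, 4544 of 4637, were tested. Planned count tests were replaced by the log-scale test because the values were coverage. The replicate ratios were fitted in limma 3.58.1 (R 4.3.3) with a mean for each setting (4 residual degrees of freedom), weighting each setting by its own spread, with a variance trend, two-sided p-values and Benjamini-Hochberg adjustment over all genes. Levels were fitted in the same way for each species. The fit was tested on simulated data. Which libraries formed which parental mRNA replicate, and how the lanes of parental RPF replicate 2 were combined, is not stated in these sources. Motifs were searched in R64 with Python 3.11.15.

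The 59 genes, their roles and the lists set beside them were chosen with earlier results of these data known. Full values were given for up to 6 called genes at each end of a comparison, and throughout for NOG1, SPB1, URB1, ERB1, YTM1, RPF2, RRS1, MDN1, NMD3, TIF6, ARX1, RLP24 and MRT4. Genes outside the 59 were named from the ends of their lists, at most 2 at each end. Alternatives were another pseudocount, no minimum, another scaling, coverage per unmasked base, 1 shared spread, a 1.5-fold threshold, a replicate block, and leaving out each replicate.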

Additional observations from a re-analysis of the deposited data

Results flagged for a closer look

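By the test of parental minus hybrid ratio, the species difference was not the same in parents and hybrid for 50 of the 59 genes in mRNA. In RPF this held for 13. Of all genes 36% passed this test in mRNA and 10.9% in RPF. For 3 genes the species difference was not the same in RPF and in mRNA, which is 1 gene in the hybrid (1.69%, against 1.41% of all genes) and 2 in the parents (3.39%, against 6.34%), shares near or below those of all genes. These were MRT4 between the hybrid's alleles (log2 -1.29), and NOP12 (-1.06) and NSA2 (1.15) between the parents.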

How the results depend on the processing

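Counts of the 59 genes called stayed within 1.5 times their reported value with a pseudocount of 2 ppm, no minimum coverage, median-of-ratios scaling and coverage per unmasked base. With 1 shared spread the counts were 3 for cis mRNA, 11 for cis RPF, 26 for trans mRNA, 27 for trans RPF, and 7 in mRNA and 11 in RPF for the S. paradoxus allele in the hybrid against its parent. Tested against a 1.5-fold difference, they were 0 for cis mRNA, 1 for cis RPF, 19 for parental mRNA, 9 for parental RPF, 5 for trans mRNA, 0 for trans RPF, 0 for cis TE and 0 for parental TE. For the hybrid against the parent they were then 13 in mRNA and 3 in RPF for the S. cerevisiae allele, and 0 in both for the S. paradoxus allele. Replicate deviations correlated across genes at 0.18 between parental mRNA and parental RPF, and between -0.054 and 0.019 for the other pairs of settings. The labels number no parental mRNA library, so the numbers were not taken to pair samples. With the replicate block the counts were 18 for cis mRNA, 44 for parental RPF, 16 for trans RPF, 52 for parental mRNA and 2 for parental TE. Leaving out each replicate gave 6 to 22 genes for cis mRNA, 1 to 3 for cis RPF, 44 to 55 for parental mRNA, 17 to 49 for parental RPF, 35 to 53 for trans mRNA, 2 to 18 for trans RPF, 0 to 2 for cis TE and 0 to 6 for parental TE. For the hybrid against the parent the ranges were 47 to 51 in mRNA and 20 to 48 in RPF for S. cerevisiae, and 6 to 18 and 1 to 6 for S. paradoxus. A replicate left out leaves 1 sample in its setting, which is assumed to vary like the others. SSF1 in cis mRNA changed sign per unmasked base, to -0.29, where its unmasked bases differ between the species. Coverage without read counts and 2 replicates per setting limit what can be detected. Shares of all genes called under these alternatives are not given in this section, so its counts show only how calls depend on processing. Over all genes the replicates differed more in RPF, but for the 59 genes most in parental mRNA.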
